A study of Mus musculus with 10 samples.

Results

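The genes described here encode tropomyosins, tropomodulins and leiomodins, the proteins that line the actin filament and sit at its pointed end. They are 10 named genes (Tpm1, Tpm2, Tpm3, Tpm4, Tmod1, Tmod2, Tmod3, Lmod1, Lmod2 and Lmod3) taken by symbol from the 23337 genes of the deposited count table, and all 10 were found. RNA was sequenced from cardiomyocytes of mice with floxed Actn2, the gene of alpha-actinin-2, which ties actin filaments together at the Z-disc. The knockout group (Actn2-FF, 5 biological replicates) has 2 floxed alleles and the heterozygote group (Actn2-F+, 5 biological replicates) has 1. Both groups received AAV9-cTNT-Cre on postnatal day 1 and were sampled on postnatal day 14. The heterozygotes therefore carried the virus and a recombinable allele too, and mice without Cre or with 2 intact alleles were not analysed here. The cTNT promoter limits Cre to cardiomyocytes, while the sorted cells can include others; the label used for sorting is not given in the sources used here.

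Tropomyosin is a coiled coil that polymerises along the actin filament and, with the troponin complex, controls where myosin can bind. In heart muscle most of it comes from Tpm1. Tpm2 is typical of slow skeletal and smooth muscle, and Tpm3 and Tpm4 supply many cytoplasmic forms in other cells. Tropomodulins cap the pointed ends of actin filaments, in the middle of the sarcomere, and use tropomyosin as part of their binding site. Leiomodins are their larger relatives, which nucleate or lengthen filaments. Lmod2 is the cardiac form, Lmod3 is prominent in skeletal muscle and Lmod1 in smooth muscle.

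Total counts per sample ran from 8086656 to 25237696. Actn2 was at 3366, 3454, 3474, 2930 and 2677 CPM (normalised read count, scaled to the size of the library) in heterozygotes 1 to 5, and at 1286, 1250, 1145, 1182 and 1220 CPM in knockouts 1 to 5, with no overlap. The sum of 10 cardiomyocyte markers was 108761 to 134781 CPM in the heterozygotes and 107139 to 133217 CPM in the knockouts. Markers of other cells were present at far lower levels: 10 endothelial markers summed to 520 to 824 CPM in the heterozygotes and 339 to 600 CPM in the knockouts. Of these 10, 2 were called lower in the knockout and 0 higher. Fibroblast markers (7 tested, 0 called) summed to 330 to 538 and 318 to 648 CPM, and leukocyte markers (3 tested, 1 lower) to 13.1 to 31.1 and 7.50 to 10.2 CPM. Among all 11870 genes tested with edgeR's quasi-likelihood test, 2241 (18.9%) had an adjusted p below 0.05, which is what "called" means here. Of these, 1216 were higher and 1025 lower in the knockout (54.3% higher, or 68.9% when libraries were scaled by their totals alone).

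Parts of the upstream sequences of the 3 called members are shown first, since these are the members that passed the test with all 10 samples. For Tpm2 and Lmod2 the call depended on the settings. The sequences come from RefSeq (GRCm38.p6, the assembly of mm10), which gave windows for 8 of the 10 genes, all but Tmod3 and Lmod3. Only bases outside the exons annotated by GENCODE are shown for Tpm2 and Lmod2, and for Tpm1 a site of 30 bases. Not shown are a Tpm2 stretch without a match (-146 to -42) and a Tpm1 stretch outside exons (-250 to -194), at whose end an E-box begins at -198. All are 5′ to 3′ on the gene's own strand. Capitals mark an MCAT element (CATTCC, or GGAATG on the other strand), the site of TEAD factors, or an E-box (CANNTG, the same on both strands), the site of basic helix-loop-helix factors.
Tpm1: tggctgtcctaaGGAATGcggtcgcccccc
Tpm2: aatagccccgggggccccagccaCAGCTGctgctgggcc
Lmod2: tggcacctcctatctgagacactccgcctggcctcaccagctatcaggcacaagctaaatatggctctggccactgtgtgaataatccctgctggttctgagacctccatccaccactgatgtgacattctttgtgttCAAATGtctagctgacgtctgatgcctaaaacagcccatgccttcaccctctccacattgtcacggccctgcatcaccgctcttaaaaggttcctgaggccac

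The Tpm1 site is chr9:67049252-67049281 on the minus strand, and its MCAT match begins at -56 from the RefSeq start. It lies within first exons of longer GENCODE transcripts of the gene. The Tpm2 stretch is chr4:43523766-43523804 on the minus strand, with an E-box at -227. The Lmod2 stretch is chr6:24597521-24597761 on the plus strand, with an E-box at -112. In the 250 bases before the start, MCAT was found in 3 of the 10 member windows (those of Tpm1, Tmod1 and Lmod1) and in 12.6% of all 32851 windows. An E-box was found in 8 of the 10 and in 66.2% of all windows. A CArG box, the site of serum response factor, and a MEF2 box were found in 0 of the 10, against 1.47% and 2.92% of all windows, both strands being covered by the search. These matches describe letters and not binding.

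Of the 10 members, 8 passed the filter on low counts and were tested, and 3 of these were called: Tpm1 was lower in the knockout, and Tpm2 and Lmod2 were higher. The share of all tested genes called was 8.64% for lower and 10.2% for higher. Tpm1 was the one member whose groups did not overlap, as in 6.32% of tested genes in that direction, 8.41% in the other and 14.7% in either. The median log2 fold change of the 8 was -0.26, beside 0.0023 for all tested genes. Tmod2 and Lmod1 were too low to be tested.

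**Figure D1:**
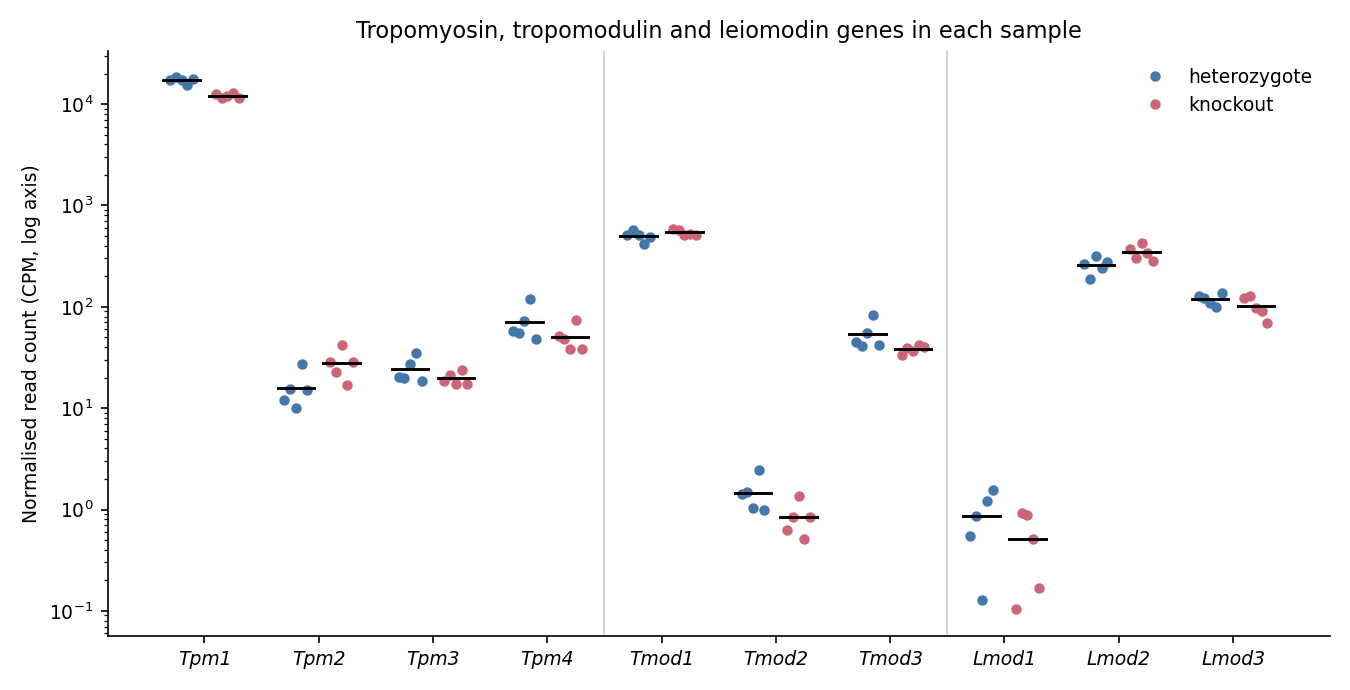
Normalised read count (CPM, log axis) of each member in every sample, heterozygotes in blue and knockouts in red, with a black line at the group mean. Tpm1 lies far above the other 9 genes, its 5 knockouts at 11529 to 12859 CPM and its 5 heterozygotes at 15529 to 18361 CPM, while the groups overlap in the other tested genes.

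Tpm1 encodes the main striated-muscle tropomyosin of the heart and lies on chromosome 9 at 67022593 to 67049213 (mm10, minus strand, 15 merged exon blocks in the annotation used for counting). Its level was 17208, 18361, 17392, 15529 and 17553 CPM in heterozygotes 1 to 5. It was 12437, 11546, 12092, 12859 and 11529 CPM in knockouts 1 to 5. Every knockout was below every heterozygote, and the samples within a group were close, with a coefficient of variation of 6.02% and 4.75%. The means were 17208 ± 1037 and 12092 ± 575 CPM (SD, n = 5 each), so the knockout held 0.703 of the heterozygote level (log2 fold change -0.51 ± 0.0741 SE; adjusted p 0.000296 in edgeR). The call held in all 20 alternative analyses, with adjusted p up to 0.00720 and log2 fold changes of -0.54 to -0.43. In bulk samples of this kind, fewer cells of a type and less RNA per cell cannot be told apart. Counts per gene also do not separate the muscle and cytoplasmic transcripts that Tpm1 makes from alternative promoters and exons.

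Because Tpm1 is so abundant, this modest fold change was a large change in the pool of reads. Tpm1 ranked 4 among the 11870 tested genes by mean CPM in both groups. Its mean fell by 5116 CPM, the largest drop of any tested gene, with TMM scaling and with library totals alone. The next largest difference was -4635 CPM in Atp2a2, the calcium pump of the sarcoplasmic reticulum, a gene named after its value was seen. Long genes give more reads, and per kilobase of exon the Tpm1 difference ranked 4, at -1560 CPM per kb.

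Partners of Tpm1 on the thin filament did not all move with it. Actc1, the cardiac actin gene, was at 25547 ± 3204 and 24804 ± 2649 CPM (SD, n = 5), which gave a log2 difference of -0.04 ± 0.101 (SE) with an adjusted p of 0.818 in edgeR. Tnnt2, whose troponin T product anchors troponin to tropomyosin, had a log2 fold change of -0.10 ± 0.113 (SE; adjusted p 0.580 in edgeR). Tnnc1, the calcium-binding subunit, had 0.19 ± 0.102 (SE; adjusted p 0.220 in edgeR). Tnni3, the adult inhibitory subunit, was lower, with a log2 fold change of -0.53 ± 0.0967 (SE; adjusted p 0.00165 in edgeR), from 6811 ± 926 to 4717 ± 315 CPM. Of these 4 partners, then, 1 was called and 3 were not, beside 18.9% of all tested genes called. The called gene, Tnni3, was named after its value was seen, and the other 3 whatever their values. A p that misses the threshold does not show that a gene was unchanged.

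Ratios taken within each sample avoid the scaling between libraries. Per gene length, the Tpm1 to Actc1 ratio was 0.275, 0.255, 0.295, 0.279 and 0.336 in heterozygotes 1 to 5. In knockouts 1 to 5 it was 0.182, 0.208, 0.198, 0.234 and 0.218. All knockouts were lower, with means of 0.288 ± 0.0303 and 0.208 ± 0.0197 (SD, n = 5). Tpm1 to Tnnt2 went from 0.573 ± 0.0581 to 0.430 ± 0.0440, and Tpm1 to Tnnc1 from 1.17 ± 0.0997 to 0.729 ± 0.0801, with no overlap in either. The Tpm1 to Tnni3 ratio overlapped between the groups, at 0.640 ± 0.0524 and 0.645 ± 0.0313. The ratios were chosen after the fold changes were known and carry no test.

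**Figure D2:**
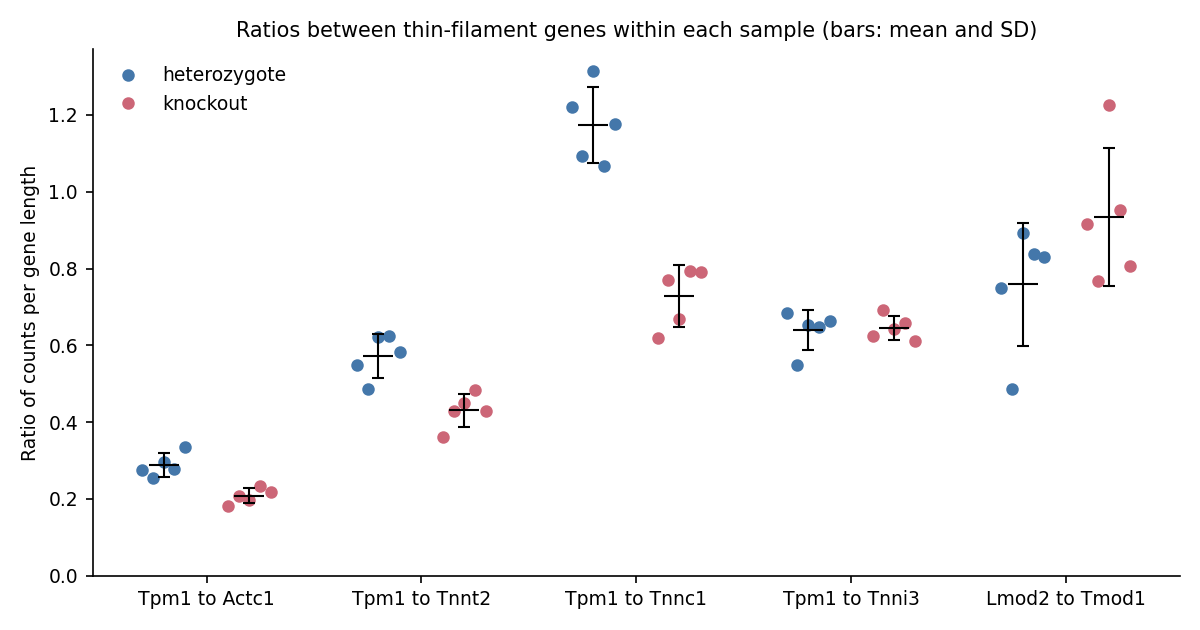
Ratio of counts per gene length between 2 genes within each sample, heterozygotes in blue and knockouts in red, bars showing mean and SD of 5 samples. Tpm1 to Actc1, Tnnt2 and Tnnc1 is lower in every knockout than in every heterozygote, while Tpm1 to Tnni3 and Lmod2 to Tmod1 overlap.

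Tpm2 lies on chromosome 4 at 43514712 to 43523388 (mm10, minus strand) and was a minor tropomyosin gene in these cells. It was at 12.01, 15.3, 10.0, 27.3 and 14.96 CPM in heterozygotes 1 to 5, and at 28.2, 22.9, 42.1, 16.9 and 28.3 CPM in knockouts 1 to 5. The groups overlapped through the high heterozygote 4 and the low knockout 4. The means were 15.9 ± 6.73 and 27.7 ± 9.33 CPM (SD, n = 5), a rise of 0.80 on the log2 scale (SE 0.265; adjusted p 0.0472 in edgeR). The call was close to the threshold and was kept in 7 of 20 alternatives; over the 20 the adjusted p ran from 0.000809 to 0.162. With 1 sample left out it was kept without heterozygote 4 (log2 fold change 1.08, adjusted p 0.00488) or knockout 4 (0.94, adjusted p 0.0238). It was lost without any of the other 8 samples, with log2 fold changes of 0.61 to 0.87.

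Smooth muscle and mural cells also express Tpm2, and their markers did not run in one direction. The 10 markers summed to 954 to 1410 CPM in the heterozygotes and 661 to 733 CPM in the knockouts, with 4 called lower and 1 higher. Among all tested genes 8.64% were called lower and 10.2% higher. Acta2, which immature cardiomyocytes also express, made up 714 of a mean sum of 1259 CPM in the heterozygotes and 202 of 691 CPM in the knockouts. Myh11, the smooth-muscle myosin, was at 18.03 ± 8.00 and 11.4 ± 4.91 CPM (SD, n = 5) and was not called (adjusted p 0.224 in edgeR). Cspg4, the marker called higher, went from 37.0 ± 6.39 to 132 ± 21.3 CPM with no overlap (adjusted p 1.23e-06 in edgeR). With the mean of the list without Acta2 as a covariate, the log2 fold change of Tpm2 was 1.07 (adjusted p 0.000809 in edgeR). That mean joins markers called higher (Cspg4) and lower (Smtn, Tagln and Myl9), so it may not follow the amount of these cells. With the endothelial marker mean as the covariate instead, the log2 fold change of Tpm2 was 0.96 and the call was lost (adjusted p 0.162 in edgeR). In that fit 1013 genes were called in place of 2241. The part of these cells in the level of Tpm2 was not tested further.

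Tpm3 and Tpm4 make mostly cytoplasmic tropomyosins, although Tpm3 also encodes a slow skeletal form. Tpm3 (chromosome 3, 90072651 to 90100902, plus strand) was at 20.3, 19.8, 27.2, 34.7 and 18.4 CPM in heterozygotes 1 to 5 and at 18.5, 21.5, 17.2, 23.9 and 17.3 CPM in knockouts 1 to 5. Tpm4 (chromosome 8, 72135292 to 72153129, plus strand) was at 57.6, 54.8, 72.2, 120 and 47.8 CPM in heterozygotes 1 to 5 and at 51.1, 48.0, 38.0, 74.1 and 38.7 CPM in knockouts 1 to 5. In both genes sample number 4 was the highest of each group, and the groups overlapped. The log2 fold changes were -0.29 ± 0.175 (SE; adjusted p 0.279 in edgeR) for Tpm3 and -0.50 ± 0.240 (SE; adjusted p 0.169 in edgeR) for Tpm4. Without heterozygote 4 they were -0.12 and -0.22. Over the 20 alternatives Tpm3 was called in 0 and Tpm4 in 1. Reads of Tpm3 are uncertain, since the mouse genome holds retrocopies of it and reads that align to several places are left out by the counting defaults.

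Counted per gene length, Tpm1 made up 99.0% ± 0.438 of the 4 tropomyosin genes in the heterozygote and 98.8% ± 0.0860 in the knockout (SD, n = 5). The remainder was split differently. The Tpm2 share went from 0.146% ± 0.0716 to 0.356% ± 0.122, the Tpm3 share was 0.174% ± 0.0603 and 0.199% ± 0.0263, and the Tpm4 share was 0.652% ± 0.316 and 0.639% ± 0.159. All 4 shares overlapped between the groups.

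Tmod1 encodes the tropomodulin of striated muscle and lies on chromosome 4 at 46039222 to 46116032 (mm10, plus strand). It was at 515, 567, 516, 418 and 485 CPM in heterozygotes 1 to 5, and at 586, 577, 511, 520 and 514 CPM in knockouts 1 to 5. The groups overlapped, with means of 500 ± 54.6 and 542 ± 36.8 CPM (SD, n = 5), which gave a log2 difference of 0.11 ± 0.0938 (SE) with an adjusted p of 0.439 in edgeR. It was called in 0 of the 20 alternatives. Of its 2871 exon bases, 1287 at the 3′ end overlap exons of Tstd2 on the other strand, and reads there are left to neither gene by the counting defaults, so its level is understated.

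Tmod3 encodes the widely expressed tropomodulin and lies on chromosome 9 at 75497784 to 75559657 (minus strand). It was at 44.6, 41.3, 54.9, 83.8 and 42.4 CPM in heterozygotes 1 to 5, and at 33.4, 39.0, 36.9, 42.4 and 39.8 CPM in knockouts 1 to 5. Heterozygotes 3 and 4 were the highest, and the remaining 3 heterozygotes were close to the knockouts. The log2 fold change was -0.48 ± 0.172 (SE; adjusted p 0.0696 in edgeR), just short of a call, and it was called in 3 of 20 alternatives. Without heterozygote 4 it was -0.26 (adjusted p 0.132). Tmod2, the neuronal tropomodulin gene next to it on chromosome 9 (75565622 to 75611325), had 8 to 34 counts per heterozygote and 5 to 15 per knockout, or 1.47 ± 0.588 and 0.839 ± 0.328 CPM, and was below the filter.

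The 3 members typical of cytoplasmic actin, Tpm3, Tpm4 and Tmod3, were each highest in heterozygote 4, which also had the highest endothelial marker sum (824 CPM). Its smooth muscle and mural sum (1410 CPM, beside 1406 in heterozygote 2) and its platelet and erythroid sum (3.77 CPM) were the highest of all samples too. Its fibroblast sum (538 CPM) was the highest of the heterozygotes, beside 537 CPM in heterozygote 1, but below the 648 CPM of knockout 2. Its leukocyte sum was not the highest. Endothelial cells express all 3 genes. With the endothelial marker mean as a covariate, the log2 fold changes were 0.20 (adjusted p 0.508) for Tpm3, 0.24 (0.426) for Tpm4 and -0.05 (0.916) for Tmod3, all from edgeR. That of Tpm1 was -0.53 (adjusted p 0.00720) in the same fit. The mean endothelial sum was itself lower in the knockout (641 and 468 CPM), so this covariate is not independent of genotype. With the smooth muscle and mural covariate the values were -0.26 (adjusted p 0.398) for Tpm3, -0.42 (0.304) for Tpm4 and -0.41 (0.144) for Tmod3, also from edgeR. The markers averaged in that covariate were called in both directions. The platelet and erythroid markers (5 genes, 1 tested and not called) summed to 1.23 to 3.77 CPM in the heterozygotes and 1.02 to 2.19 CPM in the knockouts. The 2 globin genes of that list, Hba-a1 and Hbb-b1, had 0 counts in every sample, so erythroid RNA cannot be judged from the sum. The part of these other cells in the levels of Tpm3, Tpm4 and Tmod3 was not tested beyond the covariates.

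**Figure D3:**
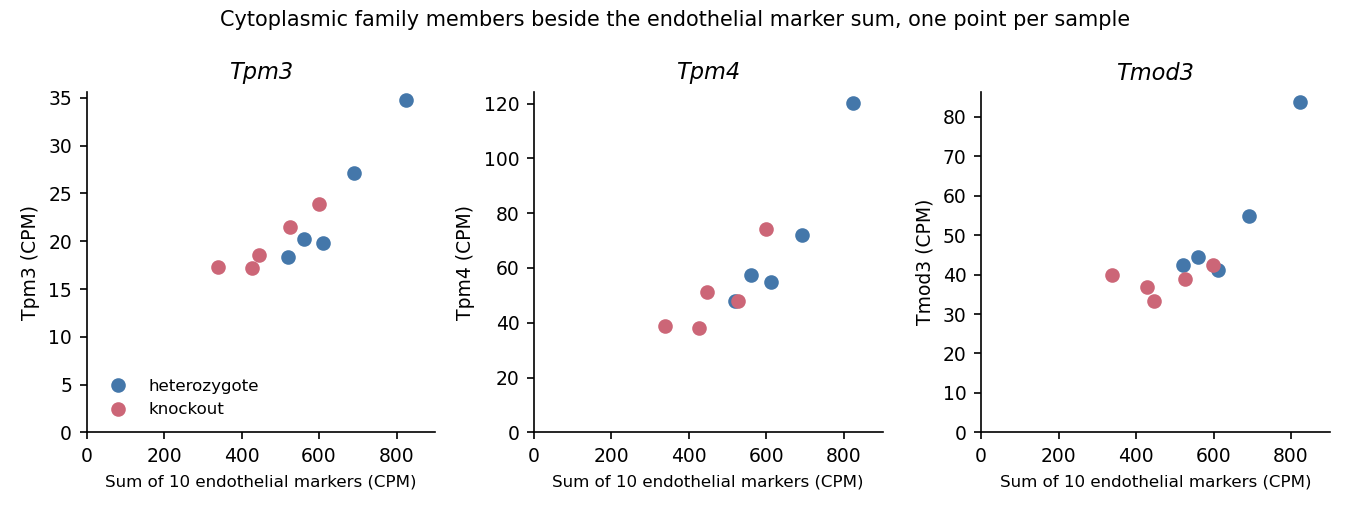
Level of Tpm3, Tpm4 and Tmod3 (CPM) against the summed level of 10 endothelial markers (CPM), 1 point per sample, heterozygotes in blue and knockouts in red. Heterozygote 4 is the point farthest to the right and the highest in each panel, at 34.7, 120 and 83.8 CPM.

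Lmod2 encodes the cardiac leiomodin, which lengthens thin filaments at the end that tropomodulin caps, and lies on chromosome 6 at 24597771 to 24605414 (mm10, plus strand, 3 exon blocks). It was at 264, 189, 316, 240 and 275 CPM in heterozygotes 1 to 5, and at 368, 304, 429, 339 and 284 CPM in knockouts 1 to 5. Knockouts 2 and 5 lay below the highest heterozygote, and the other 3 knockouts lay above all heterozygotes. The means were 257 ± 46.8 and 345 ± 57.0 CPM (SD, n = 5), a rise of 0.42 on the log2 scale (SE 0.140; adjusted p 0.0484 in edgeR), or 1.34-fold. As with Tpm2 the call sat at the threshold: it was kept in 8 of 20 alternatives, and over the 20 the adjusted p ran from 0.0172 to 0.194. With 1 sample left out it was kept without heterozygote 3 (log2 fold change 0.51, adjusted p 0.0222) or knockout 5 (0.49, adjusted p 0.0355). It was lost without any of the other 8, with log2 fold changes of 0.33 to 0.47. The direction was higher in the knockout in all 20. The call was also lost with the mural covariate (0.40, adjusted p 0.0730 in edgeR) and with the endothelial covariate (0.45, adjusted p 0.194 in edgeR). Over all genes these 2 fits called 1933 and 1013, against 2241 without a covariate.

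Lmod3 lies on chromosome 6 at 97238528 to 97252780 (minus strand). It was at 129, 122, 108, 98.9 and 137 CPM in heterozygotes 1 to 5, and at 121, 129, 97.2, 90.9 and 69.9 CPM in knockouts 1 to 5. Knockout 5 was the lowest and the groups overlapped (log2 fold change -0.23 ± 0.152 SE; adjusted p 0.323 in edgeR). Lmod1, on chromosome 1 at 135324813 to 135368065, had 1 to 16 counts per heterozygote and 1 to 12 per knockout, where 3 counts are taken as the floor of detection. It was below the filter, and heterozygote 3 and knockout 1 had a single count each.

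Within the leiomodin family, Lmod2 made up 70.7% ± 4.88 of the length-scaled counts in the heterozygote and 79.4% ± 4.27 in the knockout (SD, n = 5). Single samples ran from 63.8% (Wilson 95% interval 62.0 to 65.6%) to 76.9% (75.5 to 78.3%) in the heterozygote. They ran from 72.8% (71.6 to 73.9%) to 83.3% (82.4 to 84.3%) in the knockout, so the groups overlapped by more than counting error. The Lmod3 share was 29.2% ± 4.84 and 20.6% ± 4.26. Between the opposing pointed-end genes, Lmod2 was 42.7% ± 5.80 of Lmod2 plus Tmod1 in the heterozygote and 47.9% ± 4.55 in the knockout. That difference of 5.22 percentage points was about the size of the spread between samples. It was 2.72 points without heterozygote 2, which had the lowest Lmod2 of the 10. These shares use the full Tmod1 length and overstate Lmod2, since reads in the bases shared with Tstd2 are left out by the counting defaults. Without those bases, mean Tmod1 was 316 and 342 CPM per kb in heterozygote and knockout, beside 131 and 175 for Lmod2.

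**Figure D4:**
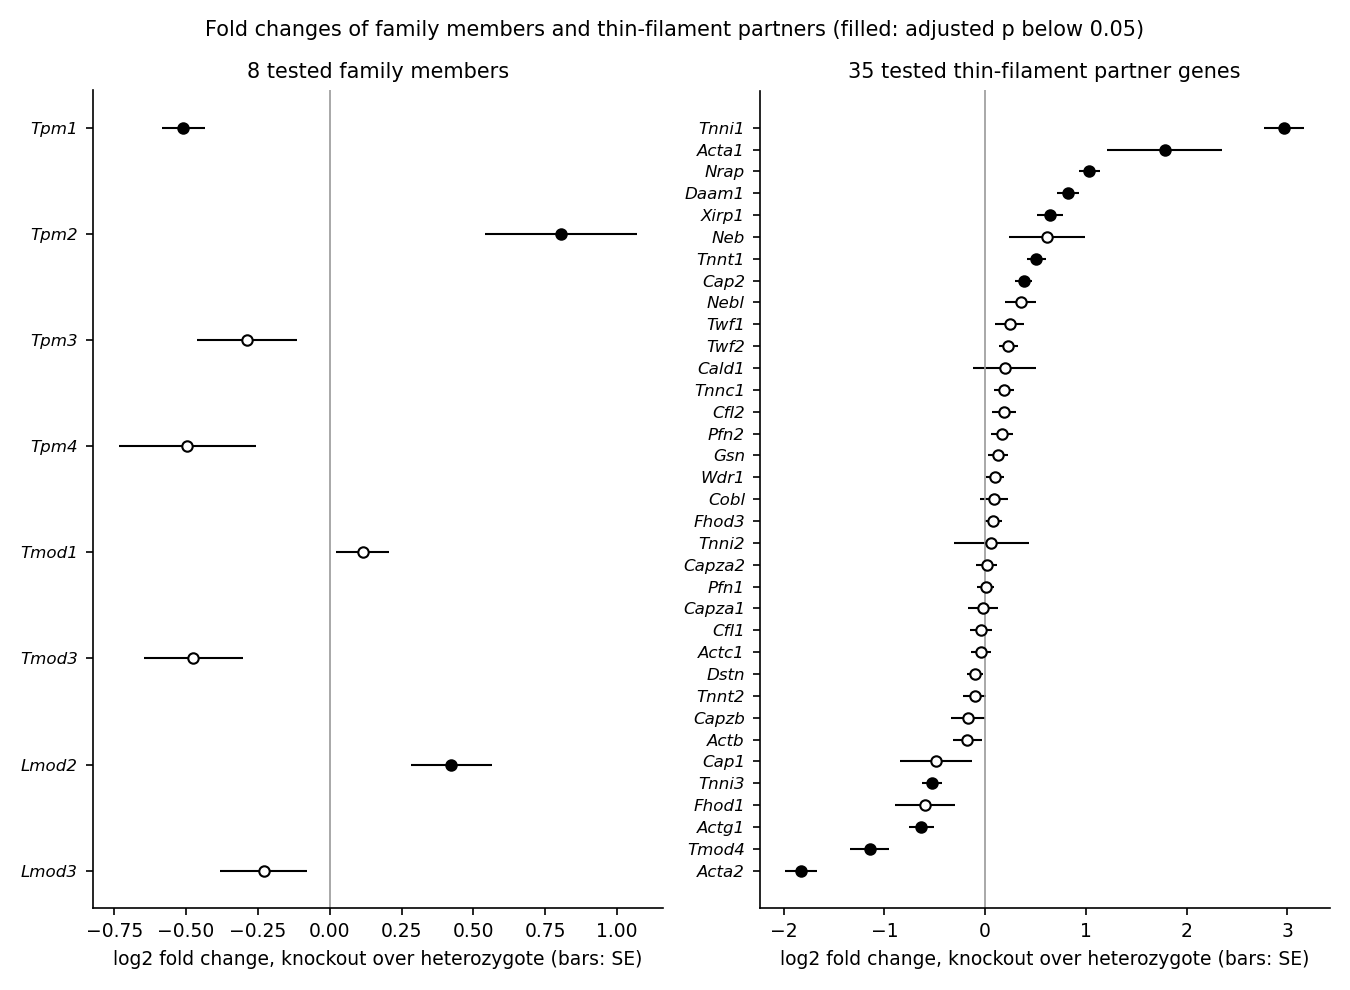
Log2 fold change of knockout over heterozygote with its SE for the 8 tested members (left) and 35 tested thin-filament partner genes (right), filled where the adjusted p was below 0.05. Among members Tpm1 is filled below 0, and Tpm2 and Lmod2 are filled above 0 with wider bars.

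The order of the levels can be given per kilobase of exon. In the heterozygote Tpm1 stood at 5248 ± 316 CPM per kb, followed by Tmod1 at 174 ± 19.03, Lmod2 at 131 ± 23.8, Lmod3 at 53.1 ± 6.94, Tpm4 at 33.9 ± 14.0 and Tmod3 at 14.9 ± 4.97 (SD, n = 5). Tpm3 at 9.08 ± 2.59 and Tpm2 at 7.59 ± 3.21 came next, and Lmod1 and Tmod2 were below 1. In the knockout the order was that of Tpm1 (3688 ± 175), Tmod1 (189 ± 12.8), Lmod2 (175 ± 29.0), Lmod3 (45.3 ± 10.6), Tpm4 (24.0 ± 7.03), Tpm2 (13.2 ± 4.45), Tmod3 (10.7 ± 0.937) and Tpm3 (7.42 ± 1.11). At the full Tmod1 length, the ranges of Tmod1 and Lmod2 overlapped, with Tmod1 higher in 9 of 10 samples. So did those of Lmod3 and Tpm4, of Tpm4 and Tmod3, and of each neighbouring pair among Tmod3, Tpm2 and Tpm3. Tpm2 was above Tpm3 in 1 of 5 heterozygotes and in 4 of 5 knockouts. Without the bases shared with Tstd2, the Tmod1 level was 316 ± 34.5 and 342 ± 23.2 CPM per kb. Both means are above the highest Lmod2 of any sample, 218 CPM per kb, so the overlap of Tmod1 and Lmod2 depends on the length used.

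The wider set of thin-filament genes, a list of 39 of which 37 matched the table by symbol and 35 were tested, gave 11 calls. Of these, 7 were higher and 4 lower in the knockout, and 24 were not called. Among all tested genes, 18.9% were called, 10.2% higher and 8.64% lower. The median log2 fold change of the list was 0.09, beside 0.0023 for all tested genes. The 8 largest were Tnni1 (2.97), Acta2 (-1.82), Acta1 (1.78), Tmod4 (-1.15), Nrap (1.03), Daam1 (0.82), Xirp1 (0.64) and Actg1 (-0.63) as log2 fold changes, with edgeR adjusted p from 3.49e-07 to 0.0429. The groups of Acta1 overlapped, at 34.2 to 332 CPM in the heterozygotes and 160 to 1200 CPM in the knockouts (adjusted p 0.0429 in edgeR). Tmod4, the skeletal-muscle tropomodulin, went from 14.1 ± 4.02 to 6.32 ± 0.777 CPM (SD, n = 5; edgeR adjusted p 0.000956) with no overlap; it is not among the 10 members. Nrap, an actin-binding protein of assembling myofibrils, went from 450 ± 53.3 to 921 ± 90.2 CPM. Daam1 encodes a formin, which assembles actin filaments, and went from 67.4 ± 8.99 to 119 ± 10.6 CPM. The barbed-end capping genes Capza2 and Capzb were not called, with log2 fold changes of 0.01 and -0.17 (edgeR adjusted p 0.945 and 0.542).

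The genes whose log2 CPM over the 10 samples was most like that of Tpm1 were Amz2, Eif4e3 and Ndufs3, with Pearson's r of 0.99, 0.98 and 0.98. For Tpm2 they were 1700019E19Rik, Erich1 and Tatdn1, with r of 0.92, 0.91 and 0.91. These coefficients include the difference between the groups and are given as a description.

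**Figure D5:**
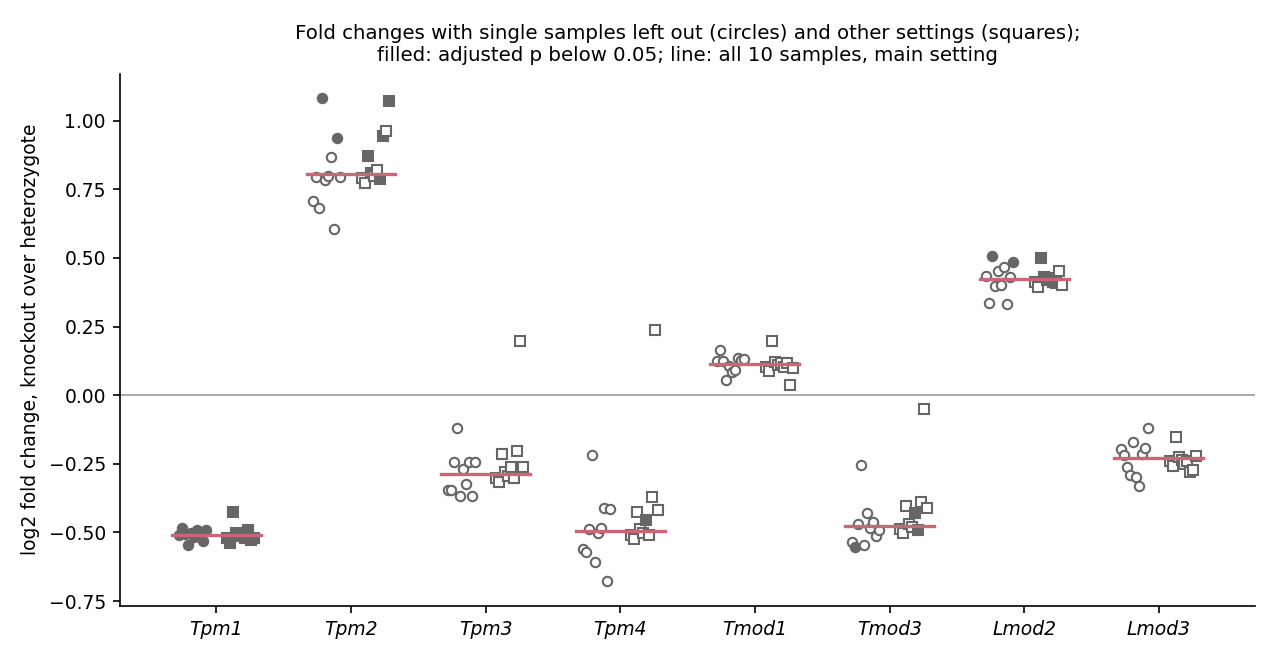
Log2 fold change of each tested member with 1 sample left out (circles) and under 10 other settings (squares), filled where the adjusted p was below 0.05, with a red line at the value from all 10 samples. Tpm1 is filled throughout, at -0.54 to -0.43, while Tpm2 and Lmod2 stay above 0 with open and filled symbols.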

How the data were processed

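The deposited values are raw counts of reads per gene, made by the authors, per the file headers, with featureCounts 1.5.1 at default options (4 threads) and a 2012 UCSC mm10 annotation. Those defaults ignore strand and leave out multi-mapping reads and reads shared by overlapping genes. The submitters' processing notes name STAR 2.5.3a and Subread 1.5.2 without a role, and the alignment names in the file header are those of another aligner, so the aligner is uncertain. Libraries were made with SMART-Seq and Nextera XT from 10 ng of total RNA and 8 PCR cycles, per the labels. Of 14 count columns, 4 match no sample here and were not used. Exon lengths are those of the table.

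Genes were filtered with filterByExpr (minimum count 10, minimum total 15), scaled by TMM and compared with edgeR 4.0.16 (quasi-likelihood F test, R 4.3.3) over all 10 samples, with Benjamini-Hochberg adjustment over all tested genes. The procedure was tested on simulated data with 2-fold and 4-fold changes, of which 83.7% and 100% were called. Of the calls, 5.85% were of unchanged genes. Smaller changes were not simulated. The SE is the absolute log2 fold change divided by the square root of F. Shares and ratios use counts divided by exon length. Wilson intervals (scipy 1.17.1) and the floor of 3 counts cover only the error of counting, as amplified reads are not separate molecules.

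The alternatives were RLE, upper-quartile and library-total scaling, no filter, the replicate number as a block, a minimum mean of 5 CPM, DESeq2 1.42.0, limma 3.58.1 voom with sample weights, covariates of endothelial or of smooth muscle and mural markers, and leaving out each sample. A Tmod1 length without shared bases was added after seeing the data. The members and lists were chosen with earlier results of these data known. Named genes were Actn2, the members, the 8 largest calls of the partner list with Actc1, Tnnt2 and Tnnc1, markers with high means, and the 3 nearest patterns to the largest member rise and fall. Tnni3, Capza2, Capzb, Myh11, Cspg4, Smtn, Tagln, Myl9 and Atp2a2 were named after their values were seen.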

Additional observations from a re-analysis of the deposited data

Results flagged for a closer look

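In 30 groups of 5 values (the 10 genes, Actn2 and 4 shares, in each genotype), 2 held a value set off from its nearest neighbour by more than 0.71 of that group's range; chance gives about 1 in 20. Both were heterozygote 4. Its Tpm1 share of the 4 tropomyosins was 98.3% (Wilson 95% interval 98.2 to 98.3%), against 99.1% in the next lowest heterozygote (gap 0.771 of the range). Its Tmod1 share of the 3 tropomodulins, at the full Tmod1 length, was 86.1% (85.1 to 87.0%), against 92.1% (gap 0.723). The same sample had the highest Tpm3, Tpm4 and Tmod3 of the 10 and the highest endothelial marker sum, 824 CPM. Its smooth muscle and mural sum (1410 CPM) and its platelet and erythroid sum (3.77 CPM) were also the highest. The part of RNA from other cells in these shares was not tested.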

How the results depend on the processing

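Over the 8 tested members and 20 alternatives (160 values), 129 kept direction and side of the threshold, 25 lost a call, 4 gained one and 2 changed sign. Both sign changes came with the endothelial covariate (Tpm3 0.20, Tpm4 0.24), which also left 1013 genes called in place of 2241 and 1 member in place of 3; the cause was not tested. RLE and upper-quartile scaling each left 1 member called. Leaving out single samples gave 1 to 2 called members and 1699 to 2258 called genes. Tpm1 was called in all 20. The partner list gave 8 to 12 calls over all alternatives. Without heterozygote 4 the knockout minus heterozygote difference in the Tpm1 share went from -0.22 to -0.41 percentage points and that in the Tmod1 share from 2.68 to 1.22, moves below the SD of the heterozygotes, which that sample widens, and above that of the knockouts. With the replicate number as a block, 2182 genes and 4 members were called: Tpm1, Lmod2, Tpm4 (adjusted p 0.0276) and Tmod3 (0.0471), and Tpm2 was not (0.0686). Same-numbered samples correlated in their deviations from the group means at -0.0604 to 0.185, and 2 of 5 correlated best with their own number, so the numbers were not taken as pairs. Tmod2 and Lmod1 had 34 counts or fewer in any library, which limits what can be said of them; tested without the filter, their adjusted p were 0.223 and 0.506 in edgeR.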
